A study of Mus musculus with 6 samples.

Results

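Claudins are the strand-forming membrane proteins of the tight junction, the seal that closes the gap between neighbouring cells. Each strand takes its permeability from the claudins it holds, since some members form pores for ions or water and others form a barrier, and along the kidney tubule each segment carries its own set. The tail of most claudins docks on scaffold proteins of the zonula occludens family, which tie the strand to the actin cytoskeleton, while transforming growth factor beta 1 (TGF-β1), a secreted protein that drives scarring, is known in epithelial cells for loosening such contacts.

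RNA levels of 10 claudin genes were examined in cultured primary mesangial cells of the mouse, which hold up the capillary loops of the kidney glomerulus, with or without TGF-β1. The 10 genes (Cldn1, Cldn2, Cldn4, Cldn5, Cldn7, Cldn10, Cldn11, Cldn12, Cldn15 and Cldn19) are a family set that was selected on measured values of this same comparison, with the opposite behaviour of Cldn2 and Cldn4 in view. Their differences are therefore given as a description, without a test. Of the 10, 8 had a row among the 19730 rows of the expression table, and Cldn5 and Cldn10 had no row under these symbols and were not analysed here. A mean of at least 1 FPKM over the 6 libraries was reached by 4 members, namely Cldn1, Cldn2, Cldn4 and Cldn12. FPKM is the number of sequenced fragments per kilobase of transcript and per mega (M) of mapped fragments, so levels of different genes can be compared per length. Cldn2 reached that mean only through the Control libraries and Cldn4 only through the TGF-β1 libraries, while Cldn7, Cldn11, Cldn15 and Cldn19 stayed below it.

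The Control group held 3 libraries from untreated cells and the TGF-β1 group held 3 libraries from cells given TGF-β1 at 10 ng/ml for 72 h. Both groups were grown in high glucose (25.5 mM) with 20% foetal bovine serum and were used at passages 3 to 6, so neither group represents cells at normal glucose. The labels do not say whether libraries of a group came from separate cultures or animals, and p-values measure only the spread between these libraries. Only RNA was measured, and in bulk RNA fewer cells that express a gene and less RNA per cell cannot be told apart.

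Library depth, recovered from the steps between low FPKM values, lay between 10.12 and 11.02 M fragments. Of 11898 rows with a mean of at least 1 FPKM, 5721 differed between the groups at a limma adjusted p under 0.05 (48.1%), with 2911 higher (24.5%) and 2810 lower (23.6%) after TGF-β1. The groups did not overlap in 7062 of these rows (59.4%). The labelled cell type was checked against marker genes. Pdgfrb, the PDGF receptor of mesangial cells and pericytes, stood at 37.5 ± 4.82 FPKM in Control and 29.2 ± 0.751 after TGF-β1 (SD, n = 3). Itga8, the mesangial integrin subunit, was at most 0.174 FPKM in any library, and 6 of 11 mesangial markers were under the filter on low values. Among these, the means of Cspg4 were 0.0735 FPKM in Control and 1.21 after TGF-β1, and those of Rgs5 were 0.0864 and 0.250, each without overlap between the groups. Pdgfra, Itga8, Des and Thy1 overlapped. The summed level of the mesangial list was 993 to 1165 FPKM in Control and 3646 to 4333 after TGF-β1, most of it from the smooth muscle actin gene Acta2. Of the 5 tested mesangial markers, Acta2 was called higher and Pdgfrb lower (limma adjusted p = 0.0396), and 3 did not pass the test. Kidney epithelial genes moved both ways. Cdh16, the kidney-specific cadherin of tubule epithelium, fell from 130 ± 16.1 to 6.30 ± 0.564 FPKM, and the 3 of 9 epithelial markers that passed the filter (Cdh16, Pax2 and Pax8) were all lower. Under the filter, the keratin genes did not share 1 direction: the group means of Krt7 were 1.47 FPKM in Control and 0.125 after TGF-β1, those of Krt18 were 0.279 and 1.57 and those of Krt19 were 0.156 and 1.06, each without overlap between the groups. The summed epithelial list was 253 to 313 FPKM in Control and 45.3 to 48.97 after TGF-β1, although Cdh1, which encodes E-cadherin, was at most 0.123 FPKM in any library and Epcam had no row. Their part in the claudin results was not tested. The summed proximal tubule list was 11.1 to 14.7 FPKM in Control and 1.52 to 1.79 after TGF-β1, most of it from the water channel gene Aqp1 in Control, the only 1 of its 6 genes that passed the filter, which fell. Below the filter, Lrp2 had means of 1.43 and 0.230 FPKM and Cubn, in the opposite direction, 0.636 and 1.28 FPKM, again without overlap. The summed podocyte list was 19.7 to 24.9 and 12.6 to 13.7 FPKM, and the 3 of 6 genes tested (Synpo, Podxl and Wt1) fell, while Nphs1 of the slit diaphragm was at most 0.398 FPKM. Of the endothelial list only Egfl7 was tested and did not pass, and Pecam1 and Cdh5 were at most 0.138 and 0.0244 FPKM. The collecting duct list summed to at most 0.777 FPKM, with Aqp2 at most 0.0749, and of the thick ascending limb list Umod had no row and Slc12a1, the only gene with a row, had 0.0408 to 0.102 FPKM in Control and 0.291 to 0.511 after TGF-β1. The part of these cell types in the claudin results was not tested either.

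The 3′ ends of the coding sequences show which members carry the scaffold-binding tail. The last 27 coding bases before the stop codon are given for each of the 8 members, read from mm9 with the GENCODE transcript that the row names, with the last 2 codons in capitals.
Cldn1: acaccttctagtgggaaagacTATGTG
Cldn2: aactcatacagcctgactgggTATGTG
Cldn4: cgctctgtccccgccagcaacTATGTG
Cldn7: aagtccaattcctccaaggaaTACGTG
Cldn15: ggtaaatatggcaaaaacgcaTACGTG
Cldn19: gcctcggtcaagggccccctgGGTGTG
Cldn11: ccaacgcatgccaagagtgccCATGTC
Cldn12: gacattccagtagtctcacacAGCACT
Cldn1, Cldn2, Cldn4, Cldn7 and Cldn15 end in a tyrosine codon followed by a valine codon, the classical end that PDZ domains of the scaffolds recognise. Cldn19 and Cldn11 keep the final valine codon after glycine and histidine. Cldn12 ends in serine and threonine codons and has no final valine. Cldn2 and Cldn4, which stood at opposite ends of the response, thus share the same last 2 codons, and their coding sequences are 51.79% identical. Across the 8 members the identity of aligned coding bases ran from 47.07% (Cldn1 with Cldn12) to 67.03% (Cldn1 with Cldn7).

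Cldn2 encodes the claudin that forms a cation and water pore in the proximal tubule. The gene lies on chrX:136335367-136345925 (mm9, forward strand), and the row follows a transcript of 2 exons, 1 of 3 annotated. The Control libraries held 32.0, 33.5 and 32.1 FPKM, and the TGF-β1 libraries 0.561, 0.608 and 0.568 FPKM. All 3 treated libraries were far below all 3 Control libraries, and within each group the libraries were close to each other. The mean went from 32.5 ± 0.831 to 0.579 ± 0.0251 FPKM (SD, n = 3), which is 56.2-fold lower. On the log2(FPKM + 1) scale, which understates changes of low levels, the difference was -4.41 (SE 0.0858), and 36 of the 11898 rows had a larger decrease. The residual level stands for about 52 fragments over the 3 treated libraries, against about 3037 in Control. Each treated library held about 17.5 of them, so the small treated SD rests on equal low fragment numbers and does not measure counting error. The counting interval of that ratio (95%, exact) ran from 43.1-fold to 76.1-fold. Like all such intervals here it pools the 3 libraries of a group, covers counting error only and is not a test of the difference.

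Cldn4 encodes a claudin of the distal nephron and collecting duct that limits the passage of sodium and takes part in chloride passage. It is a single-exon gene at chr5:135420996-135422804 (mm9, reverse strand). The Control libraries held 0.0561, 0.281 and 0.231 FPKM, which correspond to about 1, 5 and 4 fragments. The TGF-β1 libraries held 5.72, 3.62 and 5.22 FPKM, or about 101, 59 and 91 fragments. Cldn4 was thus close to the detection limit in every Control library and well above it in every treated library, and the groups did not overlap. The means were 0.189 ± 0.118 and 4.85 ± 1.09 FPKM, a 25.7-fold higher level. From the summed fragments, about 10 against about 251, the ratio was 25.8 with a 95% exact counting interval of 13.8 to 54.5. The difference on the log2(FPKM + 1) scale was 2.29 (SE 0.177), and 134 of the 11898 rows had a larger increase. Treated replicate 2 held the lowest of the 3 treated values of Cldn4, in FPKM and in fragments. It also held the highest treated FPKM of Cldn2, but there the fragments were about 17.5 in each treated library. The order of the treated Cldn2 values thus follows depth, which was lowest in replicate 2 (10.12 M fragments).

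The opposite direction of Cldn2 and Cldn4 turned their order round in every library. Cldn2 FPKM divided by Cldn4 FPKM was 570.4, 119 and 139 in the Control libraries, with the first value resting on about 1 fragment of Cldn4. The same ratio was 0.0981, 0.168 and 0.109 in the TGF-β1 libraries. Even so the exchange was unequal in amount, since Cldn2 was lower by more FPKM than Cldn4 was higher.

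**Figure D1:**
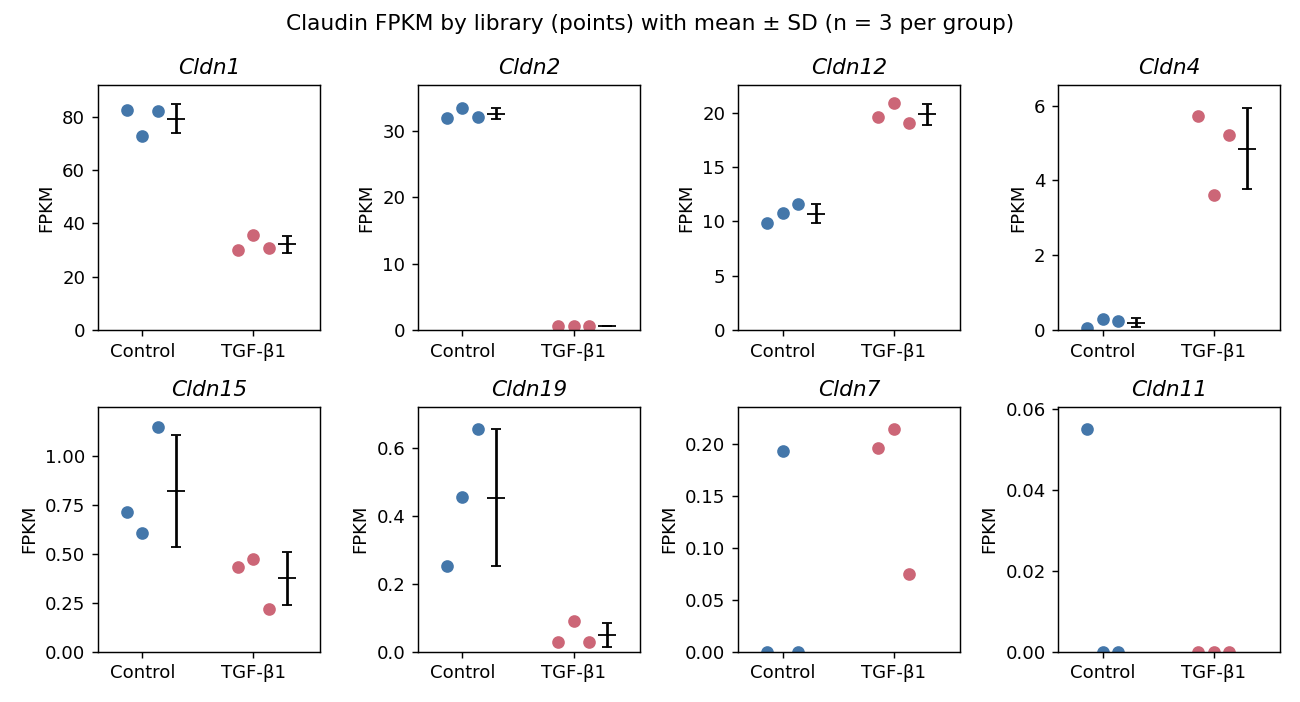
FPKM of the 8 claudin genes with a row (vertical axes from 0, a separate scale per gene) in the 3 Control and 3 TGF-β1 libraries. Points are libraries in the order of replicates 1 to 3, and the black marks are group means with SD, left out for Cldn7 and Cldn11, which are listed at 0 in some libraries. Cldn2 sits at 32.0 to 33.5 in Control and at 0.561 to 0.608 after TGF-β1, whereas Cldn4 sits at 0.0561 to 0.281 and at 3.62 to 5.72.

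Cldn1 encodes a barrier claudin, known from the skin and, in the kidney, from the parietal epithelium of Bowman's capsule. The gene lies on chr16:26356728-26371927 (mm9, reverse strand, 4 exons). The Control libraries held 82.7, 73.0 and 82.3 FPKM, and the TGF-β1 libraries 29.9, 35.6 and 30.8 FPKM. Cldn1 was the most abundant of the claudins in all 6 libraries, and its groups did not overlap. Its mean went from 79.4 ± 5.52 to 32.1 ± 3.04 FPKM, which is 2.47-fold lower, a difference of -1.28 (SE 0.0926) on the log2(FPKM + 1) scale. In FPKM this was the largest loss among the 8 members, although its fold was much smaller than that of Cldn2.

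Cldn12, a widely expressed claudin linked to calcium passage, is the member without the valine end. It lies on chr5:5505109-5514958 (mm9, reverse strand), and its row is 1 of 6 annotated transcripts. The Control libraries held 9.82, 10.7 and 11.6 FPKM, and the TGF-β1 libraries 19.6, 20.9 and 19.0 FPKM. Every treated library was above every Control library, with means of 10.7 ± 0.876 and 19.9 ± 0.986 FPKM. The level was 1.85-fold higher and the difference on the log2(FPKM + 1) scale was 0.83 (SE 0.0870).

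The other 4 members were near or under 1 FPKM. Cldn15, which encodes a cation pore of the intestine (chr5:137442486-137451728, mm9), held 0.711, 0.604 and 1.14 FPKM in Control and 0.433, 0.472 and 0.219 after TGF-β1. Cldn19, a claudin of the thick ascending limb that works with Cldn16 in magnesium uptake (chr4:118928019-118935043, mm9), held 0.251, 0.454 and 0.653 FPKM in Control and 0.0276, 0.0896 and 0.0279 after TGF-β1. For both genes the treated libraries lay below the Control libraries, at levels of about 46 against 20 fragments for Cldn15 and about 11 against 1 for Cldn19. The ratio for Cldn19 was 10.7-fold lower with a counting interval of 1.55 to 459.9. Its treated libraries stood at 0.2, 0.7 and 0.2 fragments, rounded to a sum of 1, so that interval is nominal only. Cldn19 also overlaps Gm12927 on the opposite strand, so reads could not be told apart without strand. Cldn15 was 2.23-fold lower by fragments, with an interval of 1.30 to 3.99.

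Cldn7, which encodes a partner of EpCAM in distal epithelium (chr11:69778281-69781387, mm9), was listed at 0, 0.193 and 0 FPKM in Control and at 0.196, 0.214 and 0.0748 after TGF-β1. Its groups overlapped, and the whole signal was about 2 against 4 fragments. Cldn11, the claudin of myelin and Sertoli cells (chr3:31048868-31063246, mm9), was listed at 0.0549, 0 and 0 FPKM in Control and at 0 in all 3 treated libraries, so only about 1 fragment was seen in all. For these genes no difference was detectable at this depth. Counting all 8 members with a row, the groups did not overlap for 6, lower for Cldn1, Cldn2, Cldn15 and Cldn19 and higher for Cldn4 and Cldn12. The share of tested rows without overlap was 59.4%, and nothing is read from the members' count because this contrast chose them.

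Ranked by level, the Control order was Cldn1, Cldn2, Cldn12, Cldn15, Cldn19, Cldn4, Cldn7 and Cldn11. The first 3 were apart from each other and from the rest in all Control libraries, while Cldn15 overlapped Cldn19 and Cldn19 overlapped Cldn4. After TGF-β1 the order was Cldn1, Cldn12, Cldn4, Cldn2, Cldn15, Cldn7, Cldn19 and Cldn11. The first 5 were apart from each other, Cldn15 and Cldn7 nearly touched, and Cldn7 overlapped Cldn19. Cldn2 thus moved from the second place to the fourth and Cldn4 from the sixth to the third.

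The make-up of the claudin RNA follows from these levels. The summed FPKM of the 8 members was 118.7 to 128.0 in Control and 55.9 to 61.5 after TGF-β1. Cldn1 made up 63.9 ± 2.23% of the sum in Control and 55.3 ± 2.41% after TGF-β1. Cldn2 went from 26.3 ± 1.70% to 0.999 ± 0.0151%, the latter on about 17.5 fragments in each library. In contrast, Cldn12 went from 8.63 ± 0.704% to 34.2 ± 0.382% and Cldn4 from 0.154 ± 0.0987% to 8.45 ± 2.25%. In each group 3 members reached 3 FPKM in every library, Cldn1, Cldn2 and Cldn12 in Control and Cldn1, Cldn4 and Cldn12 after TGF-β1. The ratio of Cldn1 to Cldn12 narrowed from 7.45 ± 0.862 to 1.62 ± 0.0851. Cldn4, with the tyrosine-valine end, and Cldn12, without it, both held a larger share after TGF-β1.

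**Figure D2:**
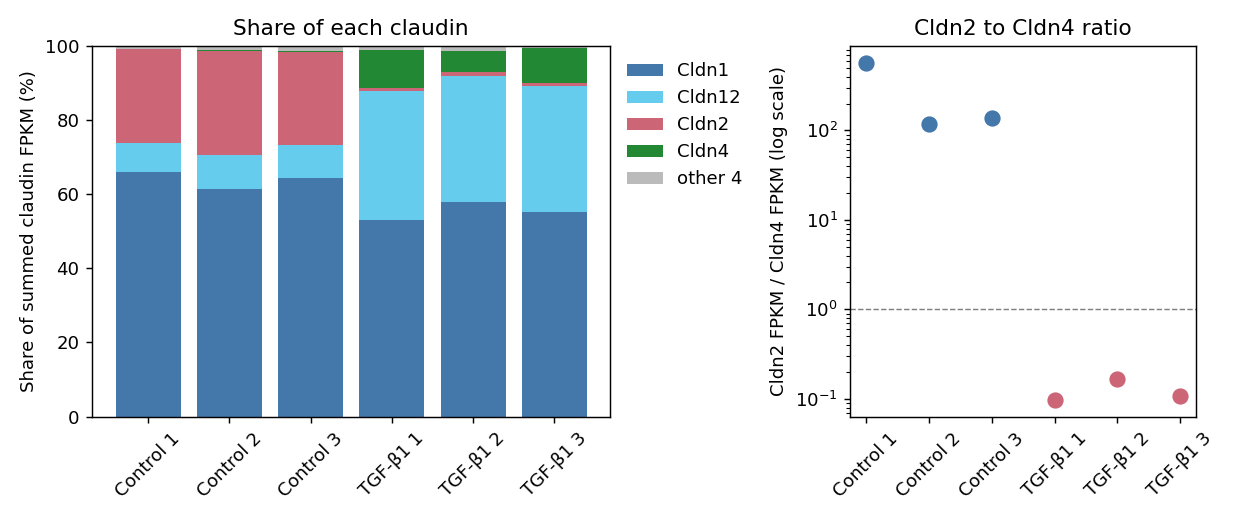
Left, the share of the summed claudin FPKM (%) held by each claudin in each of the 6 libraries, stacked to 100. Right, Cldn2 FPKM divided by Cldn4 FPKM per library on a log axis with the line of equal levels dashed. Cldn2 holds 25.1% to 28.2% of the sum in Control and 0.987% to 1.02% after TGF-β1, and the ratio lies above 1 in all Control libraries and below 1 in all TGF-β1 libraries.

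Beyond the 10 listed genes, 8 other rows carried a Cldn symbol. Only Cldn25, which RefSeq lists as a synonym of the claudin-domain gene Cldnd1, passed the filter. It was higher after TGF-β1, with 22.0, 18.9 and 21.7 FPKM in Control and 28.4, 33.6 and 28.8 in the treated libraries (log2 change 0.52, limma adjusted p = 0.00741). Cldn14, Cldn16, Cldn20, Cldn22, Cldn23, Cldn26 and Cldn27 stayed under 1.2 FPKM in every library. Among these Cldn22 was the only one without overlap between the groups: the Control libraries held 0.226 to 0.681 FPKM and the treated libraries 0.688 to 1.12, a gap smaller than the spread within either group.

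The promoters of Cldn2 and Cldn4 were compared because the 2 genes moved in opposite directions. Each stretch runs from 250 bases before to 20 bases after the RefSeq start site (GRCm38.p6), 5′ to 3′ on the strand of the gene, and each was found by exact match in mm9 at chrX:136335097-136335366 for Cldn2 and chr5:135422785-135423054 for Cldn4. Capitals mark matches to any of 3 motifs on either strand: CAGGTG, the E-box bound by SNAI and ZEB repressors; CAGAC, an element bound by SMAD proteins; and TGANTCA, the AP-1 site. These motifs do not overlap each other in the sequences printed.
Cldn2: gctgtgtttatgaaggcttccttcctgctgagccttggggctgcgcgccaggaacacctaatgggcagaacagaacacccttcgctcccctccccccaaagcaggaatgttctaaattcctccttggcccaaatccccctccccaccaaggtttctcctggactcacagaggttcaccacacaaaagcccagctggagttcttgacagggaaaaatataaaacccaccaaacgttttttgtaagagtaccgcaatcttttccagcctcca
Cldn4: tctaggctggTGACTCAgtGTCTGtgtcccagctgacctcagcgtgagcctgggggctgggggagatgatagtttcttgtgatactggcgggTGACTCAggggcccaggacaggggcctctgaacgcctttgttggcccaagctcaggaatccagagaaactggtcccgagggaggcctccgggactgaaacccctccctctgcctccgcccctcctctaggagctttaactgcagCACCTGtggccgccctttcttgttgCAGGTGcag
The Cldn2 promoter held none of the 3 motifs, which was also so for 37.4% of the 32851 promoters of 300 bases in the same table. The Cldn4 promoter held 5 matches: 2 E-boxes beginning at -14 and 12 relative to the start site, 1 SMAD element at -231, and 2 AP-1 sites at -240 and -158. Matches of all members were counted over promoters of 300 bases, which run further past the start site than the stretches printed. The Cldn1 promoter held 1 SMAD element at 29, beyond the 20 bases printed for Cldn2 and Cldn4, and each Cldn19 start also held 1. Of the 2 Cldn7 starts, 1 held 2 E-boxes at -97 and -57 with 2 SMAD elements, and the other 1 SMAD element. Cldn15 held 1 AP-1 site at -214. Over all promoters, 20.2% held the E-box at least once, 49.6% the SMAD element and 7.81% the AP-1 site. As with Cldn4, 2 or more E-boxes were held by 2.88% and 2 or more AP-1 sites by 0.46%. These shares are a description, since the promoters were picked by the change of their genes. A match is a matter of letters in these 300 bases only, and binding was not measured.

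**Figure D3:**
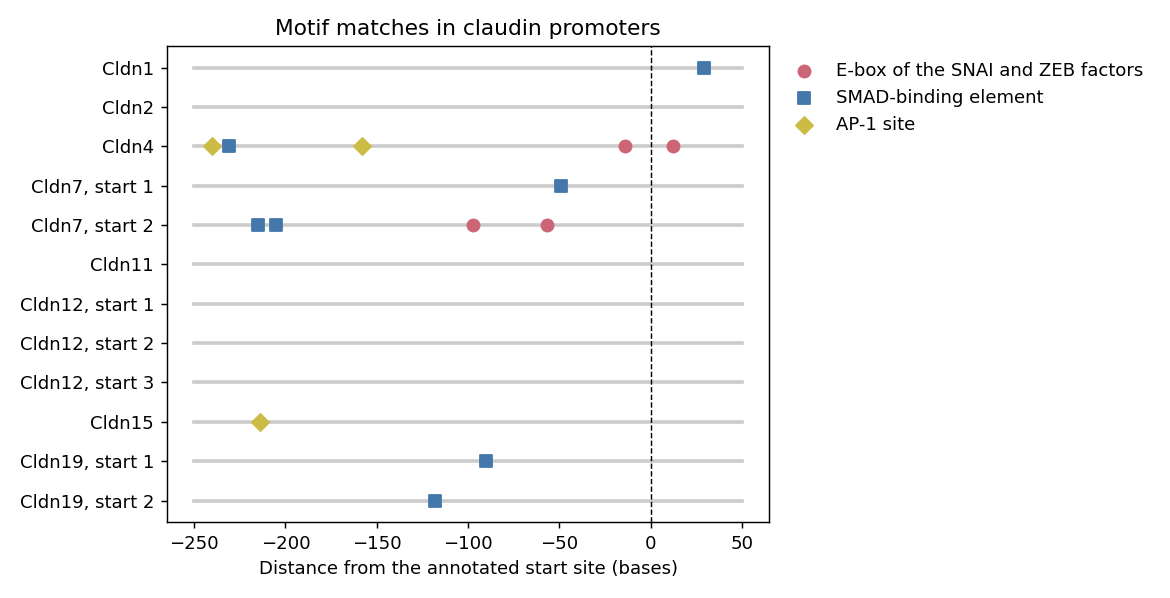
Matches to the 3 motifs on either strand, by distance from the annotated start site (bases), in the promoters of the 8 claudins with a row, with 1 line for each of the 12 RefSeq start sites. Cldn4 holds 5 matches of 3 kinds, while the lines of Cldn2, Cldn11 and Cldn12 hold none.

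Whether other tight junction genes moved was asked of 38 partner genes, 14 in the membrane and 24 in the cytoplasmic plaque. They were tested with limma over all 11898 rows. This list, like the members, was drawn up with earlier results of these data known, so its counts are not independent of the data. Of the 38 partner genes, 35 had a row and 28 passed the filter. Among those 28, 6 rose, 14 fell and 8 did not pass the test, against 24.5% higher and 23.6% lower over all tested rows. Their median log2 change was -0.42, beside -0.02 for all tested rows. Among the membrane partners, F11r alone rose, and Crb3, Cxadr and Jam3 fell. F11r encodes the junctional adhesion molecule JAM-A and had 74.7, 93.4 and 67.9 FPKM in Control and 106, 114 and 97.4 after TGF-β1 (log2 change 0.43, limma adjusted p = 0.0390), a call that was lost when any library but Control replicate 2 was left out (limma adjusted p up to 0.105, with 0.0126 to 0.175 over all 16 alternatives). Crb3, which encodes an apical polarity protein, had 8.06, 5.85 and 8.23 FPKM in Control and 1.06, 0.343 and 1.76 after TGF-β1. Its log2 change was -2.08 (limma adjusted p = 0.00155), and it overlaps Slc25a23 on the opposite strand. Cxadr, the coxsackie and adenovirus receptor of epithelial junctions, fell from 12.1 ± 0.616 to 8.07 ± 1.10 FPKM (limma adjusted p = 0.00857) and Jam3 from 19.8 ± 1.78 to 13.7 ± 0.289 (limma adjusted p = 0.00456). Occludin (Ocln) had no row, and Marveld2, which encodes tricellulin, was at most 0.497 FPKM in any library.

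In the plaque, 5 of 22 tested genes rose and 11 fell, beside 24.5% higher and 23.6% lower over all tested rows. Tjp1, which encodes the scaffold ZO-1 on which the valine ends dock, did not pass the test. It had 29.3, 25.2 and 23.1 FPKM in Control and 26.7, 31.0 and 27.2 after TGF-β1, overlapping groups with a log2 change of 0.13 (limma adjusted p = 0.374). Tjp3 (ZO-3) was at most 0.164 FPKM in Control and was listed at 0 in the treated libraries. Cgn, which encodes cingulin, a link from the scaffolds to myosin, fell from 2.80 ± 0.700 to 1.08 ± 0.327 FPKM (limma adjusted p = 0.00968), or about 212 against 78 fragments. It overlaps BC021767 and Gm15264 on the same strand and Selenbp2 on the opposite strand.

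Among the tested plaque genes the largest log2 changes were those of Amot, Pard6b and Amotl1. Amot, which encodes angiomotin, had 41.9, 43.4 and 42.2 FPKM in Control and 4.50, 4.19 and 4.95 after TGF-β1 (log2 change -2.97, limma adjusted p = 5.96e-06). Its relative Amotl1 rose, from 13.8, 17.9 and 12.9 to 42.2, 48.3 and 43.4 FPKM (log2 change 1.54, limma adjusted p = 2.73e-04). The third angiomotin gene, Amotl2, fell from 90.3 ± 6.31 to 46.7 ± 2.96 FPKM (limma adjusted p = 3.60e-04), so 2 of the 3 fell and 1 rose, without overlap between the groups for any of them. The Amotl2 row follows a transcript of 2 exons, 1 of 14 annotated. Pard6b, a polarity adaptor, fell from 10.2 ± 0.368 to 2.05 ± 0.409 FPKM (limma adjusted p = 9.21e-05). Arhgef2, which encodes GEF-H1, the RhoA activator held at junctions, increased from 25.3 ± 3.19 to 56.8 ± 2.82 FPKM (limma adjusted p = 3.85e-04). Increases were also called for Csda, Pard6g and Mpp5.

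Genes that bind, modify or degrade claudins moved both ways. Of 15 listed, 13 had a row and 9 were tested, with 3 higher, 4 lower and a median log2 change of 0.04. Over all tested rows 24.5% were higher and 23.6% lower. Wnk4, which encodes a kidney kinase that phosphorylates claudins, had 134, 125 and 117 FPKM in Control and 6.24, 8.65 and 5.64 after TGF-β1 (log2 change -4.02, limma adjusted p = 1.54e-05). The treated libraries were far below the Control libraries, and Gm11615 overlaps Wnk4 on the opposite strand. Spint2, an inhibitor of the membrane proteases that cleave EpCAM, fell from 6.61 ± 0.789 to 1.49 ± 0.190 FPKM (limma adjusted p = 1.68e-04). Lnx2, a ubiquitin ligase gene, also fell but lost its call when any 1 Control library or TGF-β1 replicate 3 was left out (limma adjusted p 0.0111 to 0.0912 over the 16 alternatives). Epha2, the receptor kinase known to phosphorylate claudin-4, rose from 7.61 ± 1.11 to 20.3 ± 0.584 FPKM (limma adjusted p = 2.49e-04), and the tetraspanin gene Cd9 went from 27.3 ± 2.26 up to 56.7 ± 3.30 FPKM (limma adjusted p = 2.74e-04). Cul3 also passed the test upwards but was at the threshold (limma adjusted p = 0.0497) and lost its call under 15 of 16 alternatives.

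Of transcription factors with known sites in claudin genes, 3 of 7 tested were higher and 2 lower, with a median log2 change of 0.07. The shares over all tested rows were 24.5% higher and 23.6% lower. Elf3, an epithelial ETS factor gene, fell from 3.93 ± 0.784 to 0.453 ± 0.156 FPKM (limma adjusted p = 3.60e-04). Snai1, whose product represses claudin genes through the E-box, rose from 0.507, 0.254 and 0.652 FPKM to 4.10, 1.95 and 5.39 (log2 change 1.65, limma adjusted p = 0.00516). Zeb2 rose from 4.92 ± 0.593 to 9.36 ± 0.229 FPKM (limma adjusted p = 0.00114), and Snai2 was the third to rise.

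**Figure D4:**
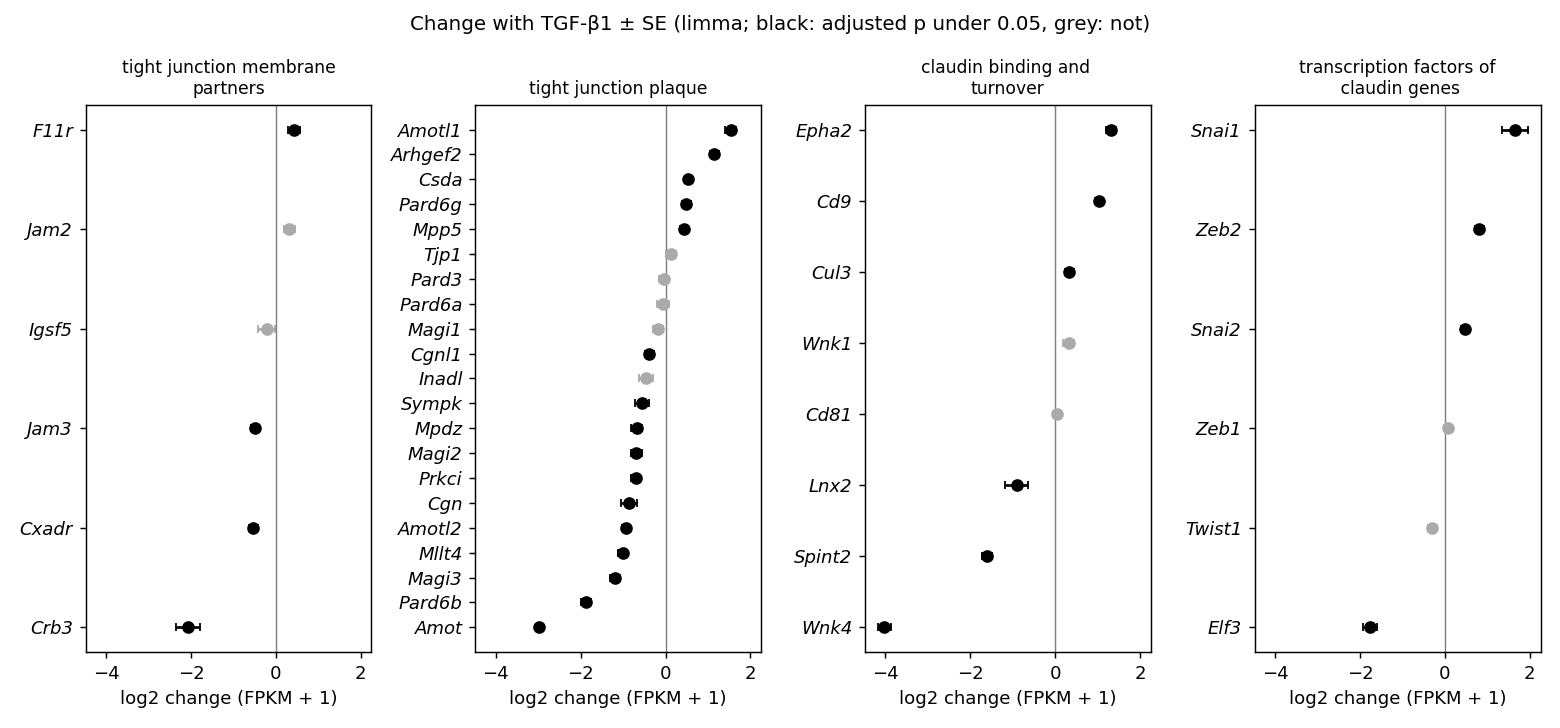
Log2 change of FPKM + 1 with TGF-β1 against Control (horizontal axis, bars are SE from limma) for tested genes of 4 lists: tight junction membrane partners, tight junction plaque, claudin binding and turnover, and transcription factors of claudin genes. Black points had an adjusted p under 0.05 and grey points did not; Wnk4 (-4.02) and Amot (-2.97) lie farthest to the left, and Snai1 (1.65) and Amotl1 (1.54) farthest to the right.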

How the data were processed

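Total RNA of 3 Control and 3 TGF-β1 libraries was sequenced by the authors, who filtered out poor reads, aligned the others to mm9 with TopHat (TopHat2 2.0.11 in the submitters' processing notes) and deposited FPKM values estimated with Cufflinks, 1 row per named transcript. No raw counts were used. Groups and replicate numbers came from the labels. FPKM were taken as log2(FPKM + 1), rows with a mean of at least 1 FPKM over the 6 libraries were kept, and limma 3.58.1 (moderated with a mean-variance trend, two-sided, Benjamini-Hochberg over 11898 rows) compared the groups, after a check on simulated data. Log2 changes of members come from the same fit without the filter. Fragments were recovered from FPKM, transcript length and depth, assuming fragments of 200 bases. Depth was chosen so that low values fell on whole fragments. This used protein-coding genes with 1 transcript of at least 500 bases, where 99.4% to 99.8% of values under 0.6 FPKM lay within 0.1 fragment. For genes with several transcripts the fragments are approximate and need not be whole. Members and gene lists were chosen with earlier results of these data known. From each list the 2 largest increases and 2 largest decreases among called genes were named, with Ocln, Tjp1, Tjp3, Cgn, Marveld2, Epcam and set markers. Jam3, Csda, Pard6g, Mpp5, Lnx2, Cul3, Snai2, Acta2, Cspg4, Rgs5, Pdgfra, Des, Thy1, Pax2, Pax8, Aqp1, Synpo, Podxl, Wt1, Egfl7, Krt7, Krt18, Krt19, Lrp2, Cubn, Slc12a1 and Amotl2 were named after their values were seen. Some genes of the lists are not reported here. Row positions are from GENCODE on mm9 and promoters from RefSeq. Alternatives changed the pseudocount, filter, scaling, threshold and libraries used.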

Additional observations from a re-analysis of the deposited data

How the results depend on the processing

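No claudin took the opposite direction under any alternative tried, although the log2 change of Cldn11 was 0 without Control replicate 1. With a pseudocount of 0.1 the log2 change of Cldn2 was -5.59 and that of Cldn4 4.17, since both have a group of low values, and those of Cldn7, Cldn11, Cldn15 and Cldn19 also moved by more than 1 SD; Cldn1 moved so only with replicates 1 and 3 alone (-1.41). Cldn2 stood at -4.45 after upper-quartile rescaling and -4.34 after quantile normalisation. At an adjusted p under 0.01, limma called 3672 of the 11898 rows. Leaving out 1 library gave 4451 to 5422 rows, and among tight junction partners 5 to 6 higher and 12 to 14 lower. Replicates 1 and 3 alone gave 5 higher and 13 lower. The calls of F11r, Cgnl1, Sympk, Lnx2 and Cul3 were lost in several refits and that of Pard6g in 1, while Inadl, Jam2 and Twist1 passed the test in at least 1. Deviations of same-numbered libraries correlated at 0.092, 0.232 and 0.085. Control replicate 1 correlated best with TGF-β1 replicate 3 (0.117), and the remaining pairs were negative (-0.194 to -0.016). With 3 libraries per group these values cannot settle whether replicate numbers paired the samples. With a replicate block 5391 rows were called, with 6 partners higher and 15 lower. Depth limits Cldn7, Cldn11, Cldn19 and the Control level of Cldn4, which rest on 11 fragments or fewer in a group.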
